A study of Mus musculus with 6 samples.

Results

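The genes of the natriuretic peptide system were examined in chromatin accessibility maps of newborn mouse heart nuclei. The set held 7 genes of 21938 annotated protein-coding genes on the assembled chromosomes: the ligands Nppa, Nppb and Nppc, the protease Corin, and the receptors Npr1, Npr2 and Npr3. They were chosen by name, and every peak overlapping a gene body or the 40 kb on either side of it (GENCODE M21, mm10) was taken as theirs. These windows held 73 and 48 peaks (Input), 60 and 58 (Myc), and 58 and 58 (PCM1). Merging overlapping peaks across libraries gave 101 regions of 169872 in the genome.

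Omni-ATAC-Seq, which marks open chromatin by Tn5 insertion, had been performed on nuclei from hearts at postnatal day 1 (P1), with 50000 nuclei per library and 2 biological replicates in each of 3 groups. All nuclei had passed a 2.2 M sucrose cushion, which favours cardiomyocyte nuclei. Input was the cushion preparation of Wildtype hearts. Myc was from Nkx2-5 Cre/+; R26RSun1-Myc-Egfp/+ hearts, in which Cre switches on a tagged nuclear membrane protein, and its nuclei were pulled down with a Myc antibody. PCM1, from hearts labelled WT, was pulled down with an antibody to PCM1, a centriolar satellite protein that surrounds the nuclei of cardiomyocytes. Smooth muscle and endothelial cells of the heart also descend from Nkx2-5 expressing cells, so the tag itself is not limited to cardiomyocytes. The authors chose the 2.2 M cushion to keep nuclei of those other cells out of the Myc maps. By the labels Cre and tag were carried by the Myc hearts alone, so that genotype and pulldown cannot be told apart between Myc and Input. Peaks in Sun1, given below, go against the WT label of PCM1, so the genotype of the libraries labelled PCM1 is uncertain in every comparison with them.

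Nppa and Nppb encode ANP and BNP, peptide hormones released by stretched heart muscle that lower blood volume and pressure. Corin is a membrane protease of cardiomyocytes that cuts pro-ANP into its active form. Npr1 encodes the guanylyl cyclase receptor of ANP and BNP, Npr2 that of CNP, the product of Nppc, and Npr3 the receptor that removes all 3 peptides from the circulation. ANP and BNP are made by cardiomyocytes, whereas CNP is known mainly from endothelium and bone.

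Nppb and Nppa lie next to each other in the same direction on chromosome 4, with start sites (TSSs) 14.9 kb apart. Nppb spans chr4:147985788-147987205 and Nppa chr4:148000722-148002079, both on the plus strand. The sequences below are those on which the results turn: the promoters of both peptides, the upstream Nppb regions at which 1 group lay apart from the others, the intronic Clcn6 region found outside PCM1, and the strongest site of Corin. Each was read from the GRCm38.p6 (mm10) reference, 5′ to 3′ on the strand of the member gene, in a window of 300 bases centred on the median summit of the libraries, and annotated untranslated bases were left out. Capitals mark matches on either strand to GATA (GATAA), NKX2-5 (TNAAGTG), TBX5 (AGGTGTG), TEAD (GGAATG), MEF2 and CArG (serum response factor) motifs, of which the last pair was searched by its consensus.
Nppb promoter, chr4:147985605-147985787, plus strand: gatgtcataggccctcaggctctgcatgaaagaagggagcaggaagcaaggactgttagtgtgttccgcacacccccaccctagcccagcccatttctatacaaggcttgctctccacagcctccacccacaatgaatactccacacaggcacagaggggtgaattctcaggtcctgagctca
Nppa promoter, chr4:148000195-148000494, plus strand: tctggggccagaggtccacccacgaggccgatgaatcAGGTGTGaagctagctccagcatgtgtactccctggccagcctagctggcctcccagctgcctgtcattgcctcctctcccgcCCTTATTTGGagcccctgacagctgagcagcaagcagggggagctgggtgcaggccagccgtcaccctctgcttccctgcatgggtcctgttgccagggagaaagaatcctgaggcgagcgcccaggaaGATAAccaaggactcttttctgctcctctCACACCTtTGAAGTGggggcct
Nppb 6.1 kb upstream, chr4:147979537-147979836, plus strand: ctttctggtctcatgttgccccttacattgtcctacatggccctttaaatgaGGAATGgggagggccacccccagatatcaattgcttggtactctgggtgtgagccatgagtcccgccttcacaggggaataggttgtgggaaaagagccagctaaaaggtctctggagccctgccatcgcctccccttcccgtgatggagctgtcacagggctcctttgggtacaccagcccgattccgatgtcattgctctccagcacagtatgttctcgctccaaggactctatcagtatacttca
Nppb 16.2 kb upstream, chr4:147969421-147969720, plus strand: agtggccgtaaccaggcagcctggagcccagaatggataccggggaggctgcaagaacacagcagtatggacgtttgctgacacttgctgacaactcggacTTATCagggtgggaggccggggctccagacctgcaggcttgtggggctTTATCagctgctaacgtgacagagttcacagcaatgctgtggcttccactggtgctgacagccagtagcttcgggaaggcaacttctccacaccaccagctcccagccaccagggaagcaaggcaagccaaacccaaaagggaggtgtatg
Nppb 21.9 kb upstream, chr4:147963714-147964013, plus strand: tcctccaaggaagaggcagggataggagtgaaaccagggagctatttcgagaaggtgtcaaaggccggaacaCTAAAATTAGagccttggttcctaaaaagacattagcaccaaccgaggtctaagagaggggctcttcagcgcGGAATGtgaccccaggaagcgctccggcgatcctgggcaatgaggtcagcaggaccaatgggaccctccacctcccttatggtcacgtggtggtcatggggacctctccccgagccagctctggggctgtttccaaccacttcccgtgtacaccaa
Clcn6 intron 7.84 kb downstream of the Nppa TSS, chr4:148008408-148008680, plus strand: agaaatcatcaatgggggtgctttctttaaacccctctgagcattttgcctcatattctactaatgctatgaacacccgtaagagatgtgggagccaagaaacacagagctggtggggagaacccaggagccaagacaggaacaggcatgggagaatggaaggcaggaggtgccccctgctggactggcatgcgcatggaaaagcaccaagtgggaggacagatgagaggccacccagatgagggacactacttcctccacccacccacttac
Corin intron 10.3 kb into the gene, chr5:72493975-72494274, minus strand: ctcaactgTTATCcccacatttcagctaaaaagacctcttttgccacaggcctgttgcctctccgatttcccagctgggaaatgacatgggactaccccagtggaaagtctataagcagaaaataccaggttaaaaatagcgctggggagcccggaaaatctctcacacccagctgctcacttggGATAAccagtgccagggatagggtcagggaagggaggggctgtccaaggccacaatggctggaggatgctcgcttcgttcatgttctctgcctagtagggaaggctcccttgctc
The Nppa window held matches to 4 of the 6 motifs, namely 1 GATA, 1 NKX2-5, 2 TBX5 and 1 CArG. The printed Nppb promoter bases held none, but the full 300-base window, which runs past the GENCODE start, held 2 GATA and 1 TEAD matches. RefSeq places the Nppb start 112 bp further downstream, so that these matches are upstream of its start. The region 16.2 kb upstream held 2 GATA matches, the region 21.9 kb upstream 1 TEAD and 1 MEF2, the region 6.1 kb upstream 1 TEAD, the Corin intron 2 GATA, and the Clcn6 intron none. In windows of the same length, GATA matches were found in 27.8% of 36 member regions with a peak in every library, 28.7% of all 48861 such regions and 25.4% of 32851 RefSeq promoters. NKX2-5 matches were found in 16.7%, 13.7% and 11.5% of these, TBX5 in 11.1%, 4.32% and 5.84%, TEAD in 19.4%, 19.4% and 14.7%, MEF2 in 5.56%, 3.01% and 0.557%, and CArG in 2.78%, 1.69% and 1.63%. The TBX5 share of the member regions stands for 4 regions and the MEF2 share for 2, too few to set apart from the rest.

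The libraries differed in ways that touch these genes. Between 75336 and 131500 peaks had been called per library, and the deepest, Input replicate 1, was 4.38 times as deep as the shallowest, PCM1 replicate 2, as judged from the genome-wide background in the peak lists. Peaks are therefore compared below by their rank percentile, in which 100 is the peak with the smallest q-value of its library and 0 stands for no peak, and by summit pileup, the number of fragments over the summit, after quantile normalisation. Summits in coding exons of Sun1, the gene of the nuclear tag, numbered 0 and 0 (Input), 4 and 4 (Myc) and 3 and 7 (PCM1). The PCM1 libraries, labelled WT, thus went against their label at this gene, and both did, so that no comparison could be made with a PCM1 library free of it. Cardiomyocyte markers had a TSS peak at 5 of 6 genes in every library, and none of 4 immune markers had a TSS peak in any. Fibroblast markers had one at 6 and 5 (Input), 6 and 6 (Myc) and 5 and 4 (PCM1) of 6 genes. Endothelial markers had one at 6 and 5, 6 and 6, and 5 and 5 of 6. Smooth muscle markers had one at 3 or 4 of 4 genes and epicardial markers at 3 of 4. Presence of a TSS peak thus did not set cardiomyocyte markers apart from those of other heart cells.

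All 7 genes had a peak within 1 kb of the TSS in every library, against 59.8 to 66.0% of protein-coding genes per library. The strongest peak over each gene and the 2 kb on either side is shown in the plot of rank percentile by gene.

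**Figure D1:**
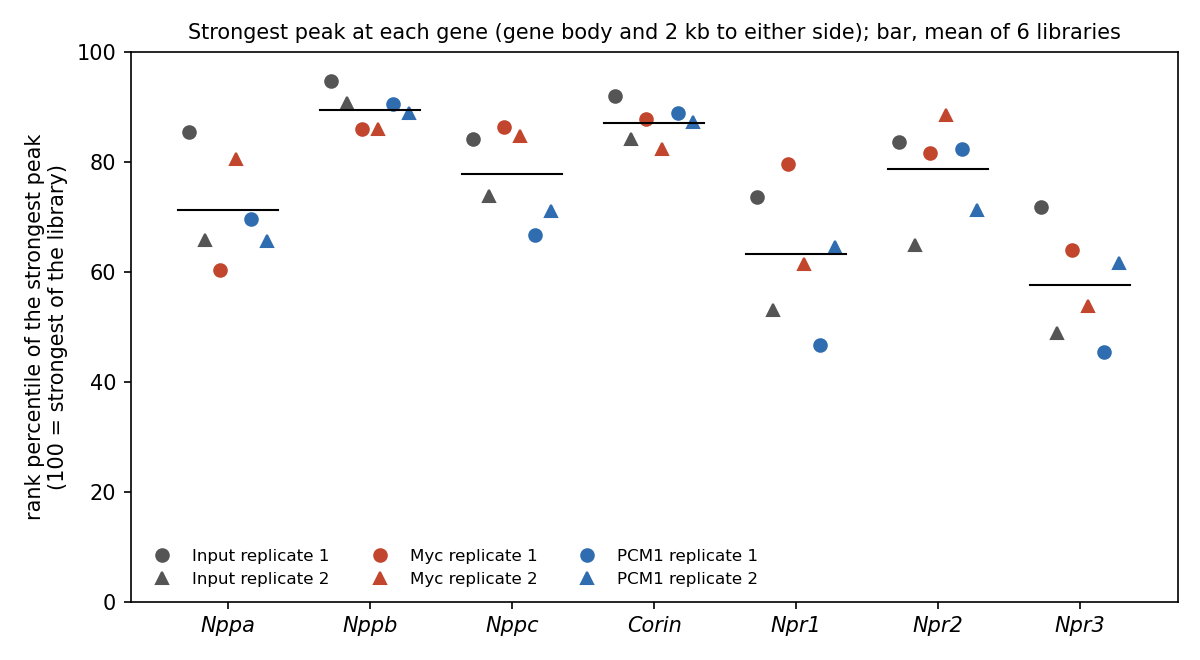
Rank percentile of the strongest peak at each of the 7 genes (gene body and 2 kb to either side) in the 6 libraries, with 100 the strongest peak of a library; points are libraries, coloured by group, and bars the mean of 6. Nppb and Corin stand highest, with means of 89.4 and 87.0, and Npr3 lowest with 57.6.

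Averaged over the 6 libraries, Nppb came first with a rank percentile of 89.4 ± 3.3 (SD, n = 6), followed by Corin with 87.0 ± 3.4. Npr2 (78.7 ± 8.8), Nppc (77.7 ± 8.3) and Nppa (71.2 ± 9.7) followed, and Npr1 (63.1 ± 12.3) and Npr3 (57.6 ± 9.9) came last. Neighbours in this order differed by less than the larger of their SDs. At the TSS alone Corin stood at 48.8 ± 10.7, behind Npr1, since its strongest site lay inside the gene in every library. Npr2 (74.5 ± 8.6) then came after Nppc, and Npr3 remained last at 44.1 ± 12.3. These TSS values take the strongest peak within 1 kb of the TSS. At Nppc that was the coding exon peak in Input replicate 1, both Myc libraries and PCM1 replicate 1. The region over the Nppc TSS itself had a mean rank of 72.9, below that of Npr2. The region over the Npr3 TSS itself had a mean rank of 16.6, with a missing peak taken as 0.

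Of the 101 regions, 36 had a peak in all 6 libraries, 33 in 1 library and 32 in between 2 and 5. The share of the members' regions found in all libraries (36 of 101) compares with 28.8% of all merged regions. By position, 10 lay at a member's TSS, 7 at the TSS of another gene, 35 inside a member, 16 inside another gene and 33 between genes. Corin, the longest gene at 204449 bp, held 33 regions, Npr3 21, the Nppb-Nppa cluster 20, Npr1 11, Npr2 9 and Nppc 7.

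**Figure D2:**
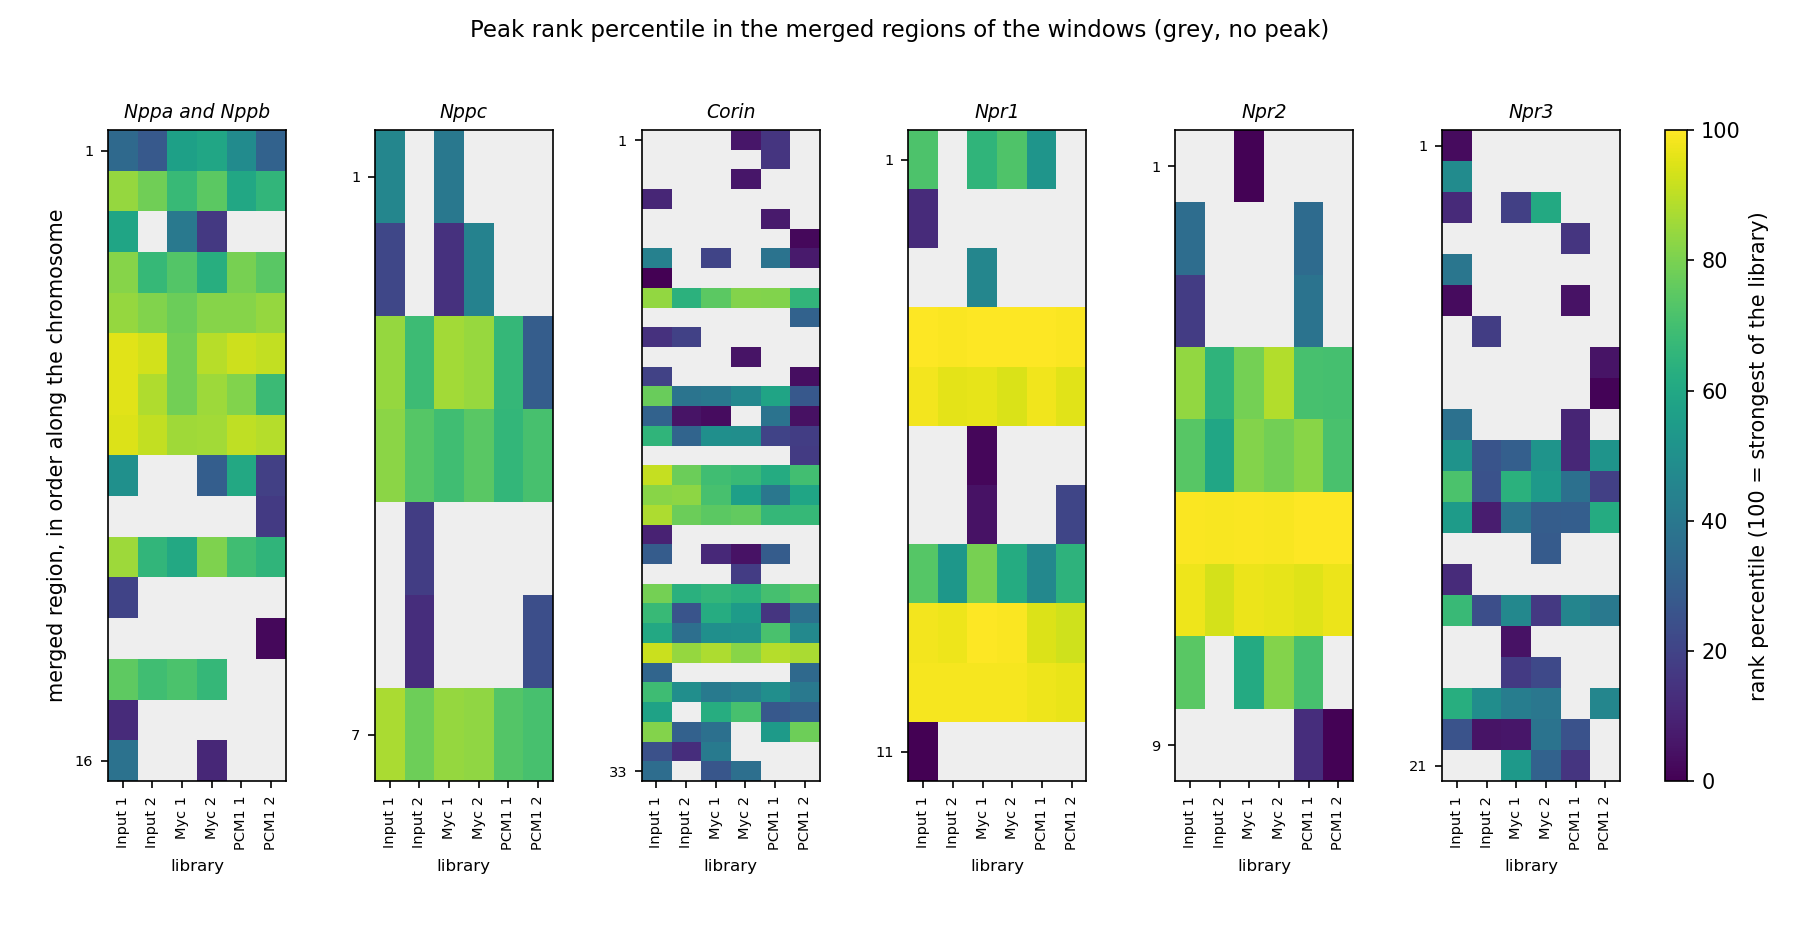
Rank percentile of the strongest peak in 97 of the 101 merged regions (rows, in chromosome order; those over 20 kb downstream of the Nppa TSS are not drawn) in the 6 libraries (columns), by gene; grey is no peak. Rows filled in all 6 columns are regions found in every library, and most of the remaining rows are weak or held by 1 library.

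Regions with a peak in all 6 libraries were compared between groups with limma on log2 summit pileup over all 48861 such regions. Against Input, no member region was called at an adjusted p under 0.05 in Myc (0 of 36, with 0.0491% of all regions called) or in PCM1 (0 of 36, with 0.0757% called). At an unadjusted p under 0.05 the limma counts were 12 of 36 in each contrast, beside 10958 and 10100 of 48861 regions. These counts of 0 depend on the variance model: with a variance that follows the mean level, an alternative chosen after seeing the data, limma called 6 of 36 in Myc (5 lower, 1 higher, with 5601 of all regions called) and 5 of 36 in PCM1 (4 lower, 1 higher, with 4322 called). Between the marker-sorted groups, limma called 3 of 36 member regions lower in Myc than in PCM1 (8.85% of all regions) and 2 of 36 higher (8.84%). Neither share of the member regions exceeded that over all regions. The 3 regions called lower all lay in the windows of both Nppb and Nppa, and Nppb was their nearest member. The median log2 difference, Myc minus PCM1, was -0.08 over the 36 member regions and -0.01 over all regions, and 20 of the 36 were lower in Myc. Within the Nppb-Nppa cluster 6 of 9 regions were lower in Myc, with a median of -0.28.

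**Figure D3:**
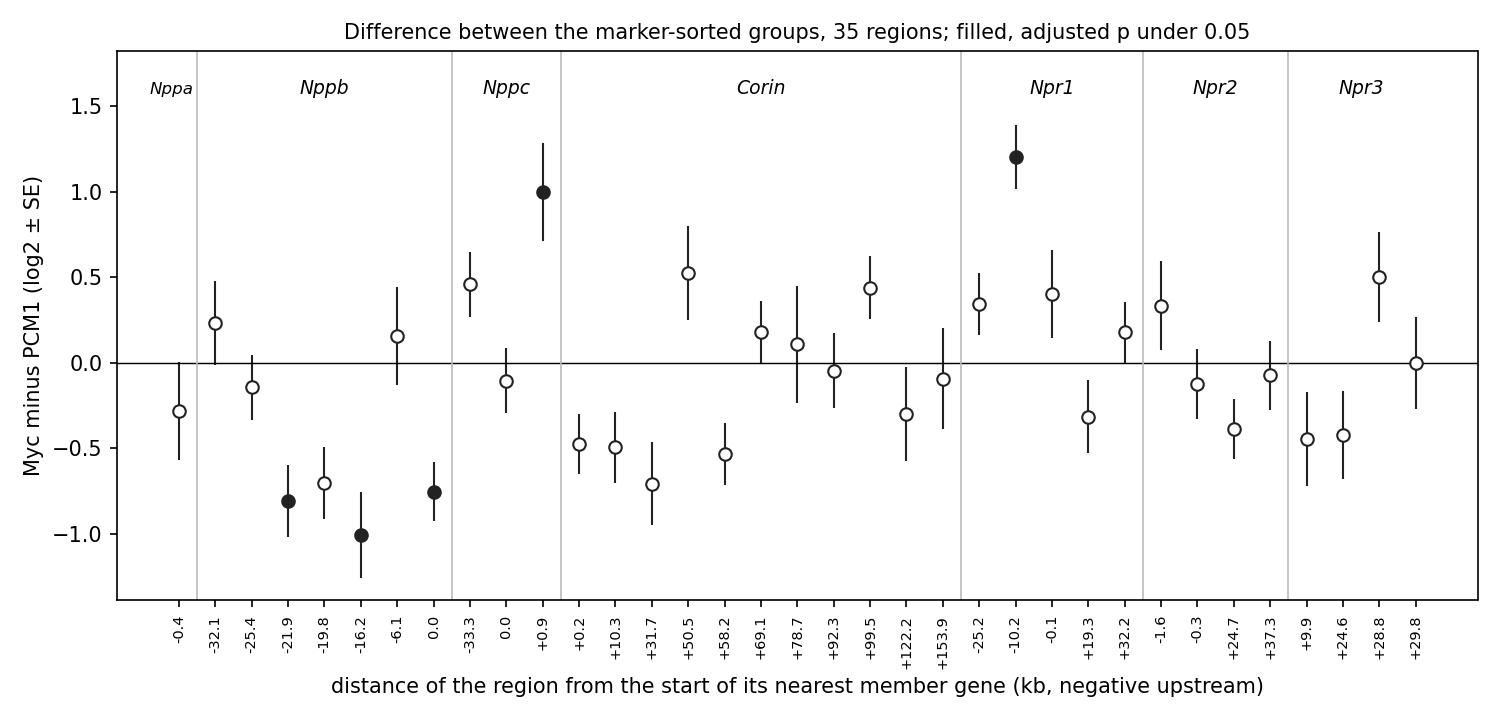
Log2 difference in normalised summit pileup, Myc minus PCM1, with its SE from limma, for 35 of the 36 regions with a peak in all 6 libraries, ordered by gene and by distance from the gene's TSS; filled points passed an adjusted p of 0.05. The 3 filled points below 0 lie nearest Nppb and within the windows of both Nppb and Nppa. The filled points above 0 lie in the Nppc coding exon and at the Ilf2 promoter in the Npr1 window.

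Nppb, the BNP gene, was accessible at its promoter and along a run of intergenic regions upstream of it. At the TSS region (chr4:147985293-147986048) the normalised summit pileup was 122.4 and 123.5 fragments for Input, 71.3 and 72.0 for Myc and 125.1 and 116.9 for PCM1. Both Myc libraries were lower than the other 4 libraries, which lay close together. The log2 difference between Myc and PCM1 was -0.75 ± 0.17 (SE), or 1.69-fold lower in Myc, with an adjusted p of 0.0292 in limma. The difference from Input was of like size, -0.78 ± 0.17, with unadjusted p values in limma of 0.0024 (Input) and 0.0029 (PCM1). After adjustment over all regions, the p against Input was 0.0861 in limma. By rank, the Nppb promoter peak stood at 94.6 and 90.7 in Input and 90.5 and 88.8 in PCM1, above the median rank of genes with a TSS peak in the same library (92.0, 87.5, 87.0 and 86.6). In Myc it stood at 85.8 and 86.0, below that median of 92.5 in both libraries.

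The intergenic region 16.2 kb upstream of Nppb (chr4:147968898-147969817), which carries the GATA matches printed above, had a mean rank of 89.9 over the 6 libraries. Its summit pileup was 141.2 and 161.6 for Input, 55.0 and 88.1 for Myc and 142.1 and 137.6 for PCM1. Here too both Myc libraries lay under the other 4. The log2 difference from PCM1 was -1.01 ± 0.25 (SE), 2.01-fold lower, with an adjusted p of 0.0351 in limma. From Input it was -1.12 ± 0.25, with an adjusted p of 0.0861 in limma. At 21.9 kb upstream (chr4:147963565-147964163) the pileup was 63.0 and 64.6 (Input), 54.1 and 39.3 (Myc) and 84.0 and 77.5 (PCM1). Myc was lowest and PCM1 highest at this site, with no overlap between groups, and the log2 difference was -0.81 ± 0.21, 1.75-fold lower in Myc, with an adjusted p of 0.0400 in limma. Between these sites, 19.8 kb upstream, Myc was again the lowest group (79.4 and 105.7 in Input, 65.5 and 72.0 in Myc, 104.1 and 120.3 in PCM1), with a log2 difference of -0.70 ± 0.21 and an adjusted p of 0.0585 in limma.

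These 3 calls rested on every library and on the measure. Calls over all regions also fell when a library was left out, and were 0 of 48861 on the deposited fold enrichment. Without Input replicate 1 or 2 the adjusted p of the Nppb TSS region was 0.0528 or 0.0657 in limma, without Myc replicate 1 or 2 it was 0.126 or 0.111, and without PCM1 replicate 1 or 2 it was 0.0906 or 0.0769. The log2 difference itself stayed between -0.82 and -0.72. The distal regions likewise kept their sign but were not called in any of the 6 such fits, with log2 differences from -1.34 to -0.66 at 16.2 kb and from -1.04 to -0.57 at 21.9 kb. On the deposited fold enrichment in place of pileup, the adjusted p in limma was 0.410 at the TSS, 0.307 at 16.2 kb and 0.285 at 21.9 kb, with log2 differences of -0.22, -0.40 and -0.33. When a library is left out its partner is assumed to vary as the other groups do.

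Other cell type markers moved in the same contrast. Of the 5 cardiomyocyte markers tested at their TSS, all 5 were lower in Myc than in PCM1, with a median log2 difference of -0.25. Of these, 2 were called lower: Myh6, a cardiac myosin heavy chain (-1.37 ± 0.20), and Tnnt2, cardiac troponin T (-1.0 ± 0.18). Of the 3 ventricular markers 2 were lower, with a median of -0.42, and the light chain gene Myl2 was called lower (-1.0 ± 0.21). The 1 atrial marker tested, Myl4, was higher in Myc (0.60 ± 0.17) but was not called (adjusted p 0.0524 in limma). The other atrial markers could not be tested. Myl7 had TSS ranks of 61.8 and 40.6 (Input), 0 and 1.7 (Myc) and 29.4 and 0 (PCM1), and Sln had no TSS peak in any library. Of the 4 fibroblast markers tested 0 were lower, with a median of 0.64, and limma called Dcn higher. Of the 5 endothelial markers 1 was lower, with a median of 0.67, and Tek was called higher. Of the 3 smooth muscle markers 2 were lower, with a median of -0.41, although Myh11 was called higher, and of the 3 epicardial markers 2 were lower, with a median of -0.02, although Tbx18 was called higher. The mean TSS rank of the 6 cardiomyocyte markers, with Tnni3 at 0 in every library, was between 74.9 and 78.2 in all libraries. That of the 6 endothelial markers was 69.0 and 42.6 for Input, 64.2 and 72.4 for Myc and 45.8 and 52.5 for PCM1. The mean of the 6 fibroblast markers was 72.77 and 48.75 for Input, 70.66 and 69.89 for Myc and 45.15 and 37.19 for PCM1. The part of these marker differences in the Nppb result was not tested, and fewer nuclei of a type cannot be told apart from less open chromatin per nucleus in such bulk libraries.

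A different pattern was seen 6.1 kb upstream of Nppb (chr4:147979343-147980027), where Input was the highest group. The pileup there was 128.3 and 97.5 (Input), 40.9 and 52.4 (Myc) and 53.4 and 32.4 (PCM1). The Input libraries lay above all 4 antibody-sorted libraries, which overlapped. The log2 difference from Input was -1.27 ± 0.29 in Myc and -1.43 ± 0.29 in PCM1, with adjusted p values of 0.0869 and 0.0922 in limma, so neither passed. Further upstream, the region at 25.4 kb gave 60.7 and 71.4 for Input, 40.9 and 43.7 for Myc and 43.7 and 50.0 for PCM1. Both Input libraries again lay above all 4 antibody-sorted libraries, and this region was not called in any contrast.

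**Figure D4:**
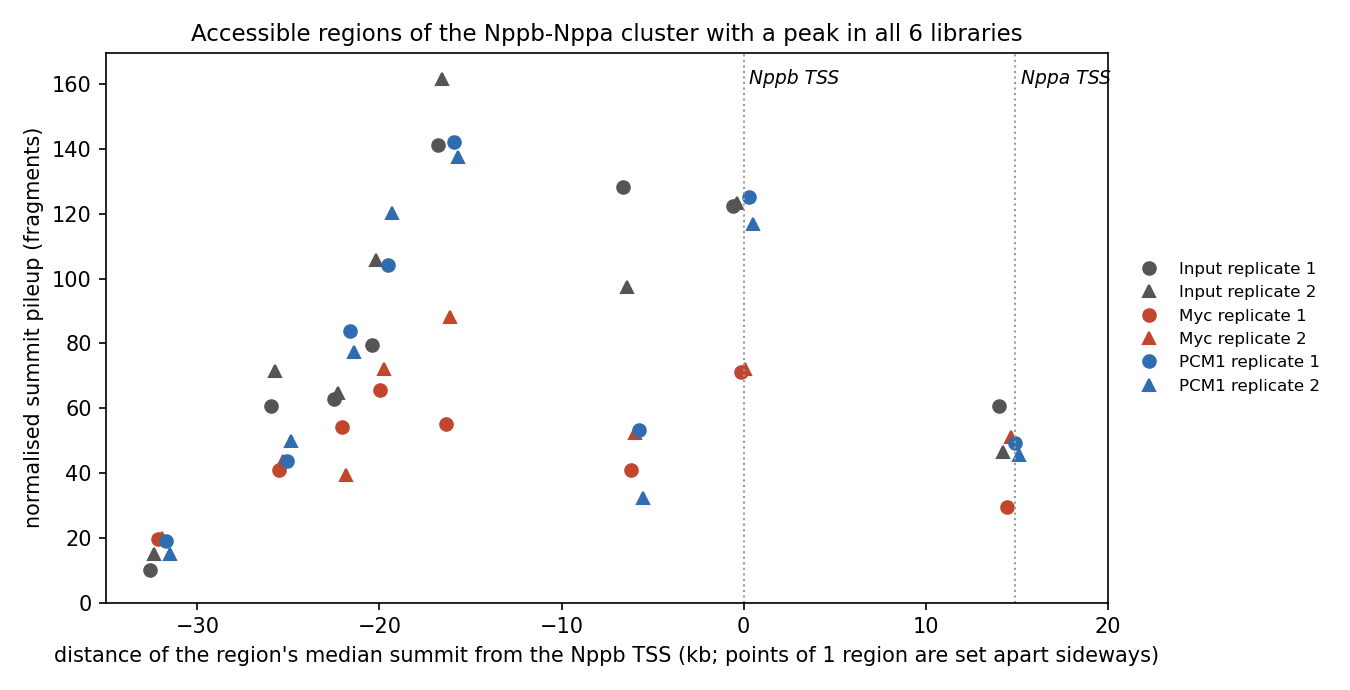
Normalised summit pileup (fragments) of 8 regions of the Nppb-Nppa cluster with a peak in all 6 libraries, against distance from the Nppb TSS in kb; points are libraries, coloured by group. Myc lies under PCM1 and Input at the Nppb TSS and 16.2 kb upstream of it, Input lies on top 6.1 kb upstream, and the groups overlap at the Nppa TSS.

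Nppa, the ANP gene, had a single peak over its body and flanks in every library, summiting 0.38 kb upstream of the TSS (chr4:148000000-148000840). Its summit pileup was 60.7 and 46.6 (Input), 29.5 and 51.2 (Myc) and 49.2 and 45.4 (PCM1). The groups overlapped, and the log2 difference between Myc and PCM1 was -0.28 ± 0.29 (SE), with an adjusted p of 0.515 in limma. In rank the peak stood at 85.4 and 65.7 for Input, 60.3 and 80.5 for Myc and 69.5 and 65.5 for PCM1. In every library it stood below the median of genes with a TSS peak, and below the Nppb promoter. Over the 6 libraries, the TSS ranks most like those of Nppa among protein-coding genes were those of Gramd1b, Cbs and Nlrp10, with root mean square differences of 3.70, 3.86 and 3.96 percentile points.

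Downstream of Nppa, within an intron of the neighbouring chloride transporter gene Clcn6, a region 7.84 kb from the Nppa TSS (chr4:148008420-148008732) had a peak in both Input and both Myc libraries and in neither PCM1 library. Its rank was 75.4 and 69.3 in Input and 71.7 and 66.8 in Myc. Differences in presence were counted after each library had been reduced to its strongest 75336 peaks, the number in the smallest library, which left 73 member regions. This region was the 1 member region present in both Input and neither PCM1 library (3.58% of all regions were) and the 1 present in both Myc and neither PCM1 library (5.5%). It could not be tested by pileup, since a library without a peak gives no value. No member region was present in both Input and neither Myc library (3.15% of all regions) or in both PCM1 and neither Input library (2.46%), and 1 of each was present in both Myc and neither Input library (3.33%) and in both PCM1 and neither Myc library (3.55%). The latter lay in an intron of Nppb, 0.85 kb from its TSS, and Myc replicate 2 had a weak peak there (rank 29.7) before the reduction.

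Nppc, the CNP gene on chromosome 1 (chr1:86666291-86670571, minus strand), had adjacent regions at the TSS and in the coding exon that follows. At the TSS (chr1:86670191-86670980) the pileup was 48.8 and 55.0 for Input, 36.4 and 42.5 for Myc and 40.9 and 43.8 for PCM1, with no call in any contrast. In the coding exon, 0.90 kb into the gene (chr1:86669470-86669943), it was 51.7 and 46.6 (Input), 62.0 and 59.1 (Myc) and 40.9 and 22.4 (PCM1). Myc was the highest group there and PCM1 the lowest, without overlap, and Myc exceeded PCM1 2.00-fold (log2 difference 1.00 ± 0.28, adjusted p 0.04995 in limma, just inside the threshold). PCM1 replicate 2 set much of that size: without it the log2 difference was 0.57, with an adjusted p of 0.153 in limma. Without PCM1 replicate 1 it was 1.42 with an adjusted p of 0.0465, and in the other 4 such fits the adjusted p was between 0.0759 and 0.184. On the deposited fold enrichment the log2 difference was 1.02 with an adjusted p of 0.0915 in limma. Within the Nppc window the remaining region with a peak in every library was the promoter of Dis3l2, which was not called.

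Corin, on the minus strand of chromosome 5 (chr5:72300025-72504473), was most accessible inside the gene rather than at its promoter. The intronic region 10.3 kb from the TSS (chr5:72493894-72494503), whose GATA matches are printed above, was its strongest site in each of the 6 libraries. Its rank was 91.9 and 84.2 for Input, 87.8 and 82.3 for Myc and 88.8 and 87.2 for PCM1, whereas the TSS region (chr5:72503315-72504836) stood at 69.0 and 49.3, 41.1 and 43.6, and 49.4 and 40.2. The intron outranked the promoter in every library. In pileup the intronic site was at 82.3 and 70.1 (Input), 70.1 and 53.3 (Myc) and 88.5 and 83.9 (PCM1), and the difference between Myc and PCM1 (log2 -0.50 ± 0.21) had an adjusted p of 0.136 in limma.

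**Figure D5:**
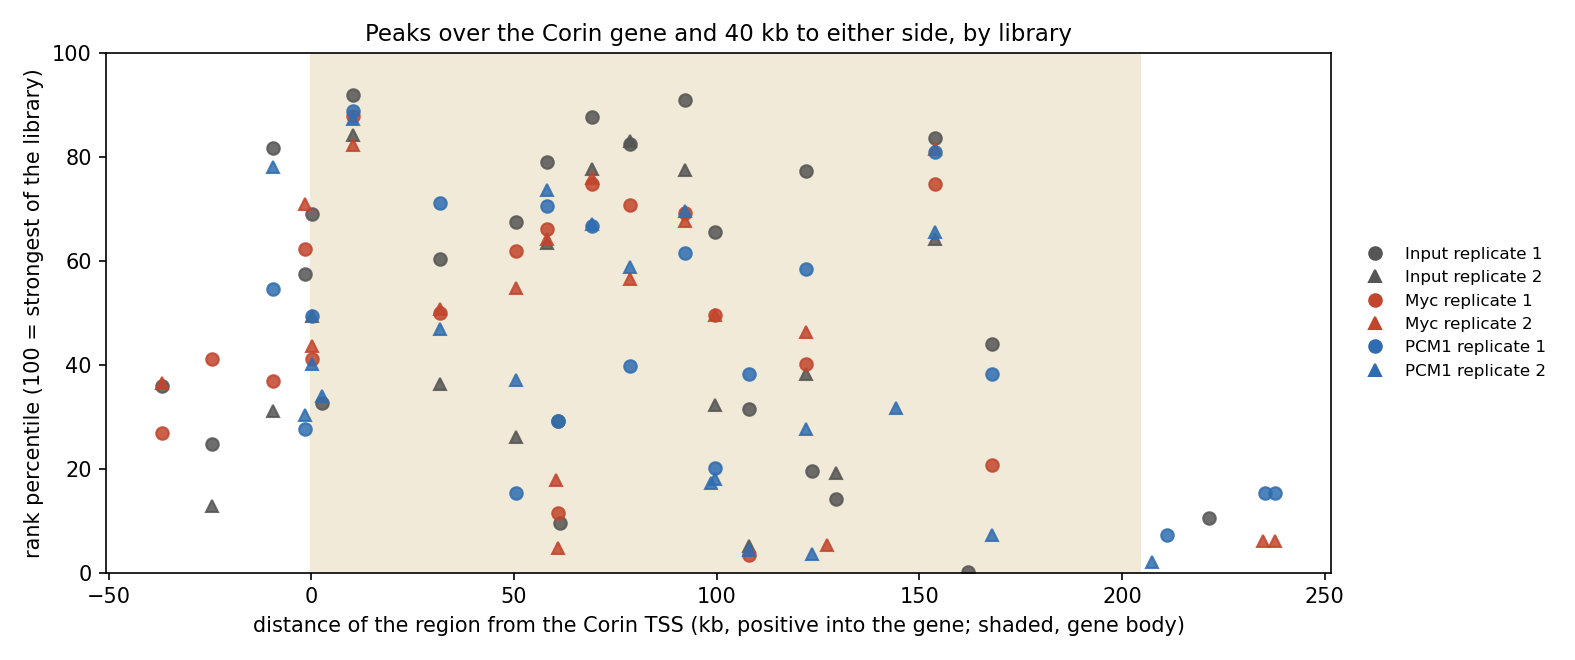
Rank percentile (100 = strongest of the library) of every peak over Corin and 40 kb to either side, against distance from its TSS in kb, positive into the gene; points are libraries, coloured by group, and the shaded span is the gene body. The highest group of points, near 10 kb, is the intronic site at ranks of 82.3 to 91.9, above the points at the TSS.

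Of the 11 Corin regions with a peak in every library, 10 were lower in Myc than in Input and 7 lower in PCM1 than in Input, with medians of -0.42 and -0.18 beside 0.02 and 0.01 over all regions, and 0 of the 11 was called in any of the 3 contrasts by limma. The smallest adjusted p values against Input belonged to an intronic region 92.3 kb from the TSS (chr5:72411635-72412591), with pileups of 81.1 and 60.5 for Input, 34.5 and 30.7 for Myc and 30.7 and 36.8 for PCM1. Both Input libraries lay above the other 4, as at the region 6.1 kb upstream of Nppb. The log2 differences were -1.11 ± 0.22 in Myc and -1.06 ± 0.22 in PCM1, with adjusted p values of 0.0765 and 0.0931 in limma. An intronic region 58.2 kb from the TSS had the smallest adjusted p of the gene between Myc and PCM1, with 38.9 and 40.9 for Input, 30.7 and 28.8 for Myc and 40.9 and 45.4 for PCM1. Both Myc libraries lay under the other 4 there (log2 -0.53 ± 0.18, adjusted p 0.0773 in limma). A coding exon 69.1 kb into Corin, with 52.4 and 56.3 (Input), 36.4 and 38.0 (Myc) and 35.1 and 30.8 (PCM1), was not called either. Both Input libraries lay above the other 4 at this exon too. The intronic region 154 kb from the TSS, which also lies over the antisense gene Gm20647, overlapped between all groups (38.1 and 32.3 in Input, 30.7 and 39.3 in Myc, 49.2 and 27.9 in PCM1).

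Npr1, the receptor of ANP and BNP (chr3:90450591-90465866, minus strand), had a modest promoter in a window of strong neighbours. Its TSS region (chr3:90464536-90466842) had pileups of 38.0 and 36.4 for Input, 60.1 and 38.0 for Myc and 32.0 and 40.9 for PCM1, ranks of 46.7 to 79.5, and no call. The groups overlapped, and Myc replicate 1 stood above the other 5 libraries. This merged region spans 2307 bp. The strongest summit lay from -824 bp (Input replicate 2) to 344 bp (PCM1 replicate 1) of the TSS, so the pileups may not stem from 1 site. An intergenic region 19.3 kb from the TSS, beyond the 3′ end of the gene (chr3:90446277-90447117), was far higher, with 228.7 and 204.6 (Input), 189.2 and 155.2 (Myc) and 241.8 and 188.2 (PCM1). It was the highest member region outside any TSS, with a mean rank of 96.3, and was not called (Myc minus PCM1 log2 -0.32 ± 0.21, adjusted p 0.327 in limma). The call in this window belonged to the promoter of Ilf2, a gene for an RNA-binding protein, and not to Npr1: 218.8 and 230.5 for Input, 342.2 and 332.1 for Myc and 159.3 and 134.4 for PCM1, 2.3-fold higher in Myc than in PCM1 (log2 1.2 ± 0.18, adjusted p 0.0140 in limma). It lost the call without either Myc library (adjusted p 0.0889 and 0.0746) or PCM1 replicate 2 (0.0558), with log2 differences of 1.22, 1.26 and 1.07, and on the deposited fold enrichment (log2 0.32, adjusted p 0.260 in limma). Ints3 and Snapin promoters in the same window were not called.

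Npr2, the CNP receptor (chr4:43631935-43651244, plus strand), had a TSS region (chr4:43631190-43632059) that also overlaps the antisense gene Gm12473. Its pileup was 40.2 and 39.3 (Input), 62.9 and 62.9 (Myc) and 79.3 and 59.1 (PCM1). Both Input libraries were lower than the 4 sorted libraries, with log2 differences from Input of 0.66 ± 0.20 in Myc and 0.78 ± 0.20 in PCM1 and adjusted p values of 0.130 and 0.115 in limma. Input was thus lowest at the Npr2 promoter and highest at the Nppb and Corin sites named above, and none of these passed the threshold. A region 1.56 kb upstream of the TSS gave 56.2 and 43.7 for Input, 56.9 and 90.3 for Myc and 56.3 and 57.5 for PCM1, and the groups overlapped. The Npr2 window also held the promoters of Hint2 and of Fam221b and Tmem8b, both strong and neither called.

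Npr3, the clearance receptor (chr15:11839896-11907287, minus strand), had the weakest peaks of the set. Over its TSS the region chr15:11907108-11907560 had ranks of 25.8 and 5.1 (Input), 5.9 and 38.0 (Myc) and 25.1 in PCM1 replicate 1, with no peak in PCM1 replicate 2. The adjoining intronic region 0.96 kb into the gene had ranks of 62.8 and 48.8 (Input), 42.3 and 39.6 (Myc) and 46.0 in PCM1 replicate 2, with no peak in PCM1 replicate 1. Each library therefore had at least 1 peak at the Npr3 start, but neither region could be tested across all 6. There were 4 intronic regions with peaks in every library, at 9.93, 24.6, 28.8 and 29.8 kb from the TSS, with pileups between 11.6 and 29.5 and no call in any contrast. The TSS ranks most like those of Npr3 were those of Syt1, AI854703 and Svep1, with root mean square differences of 5.76, 5.91 and 5.92 percentile points. A region 6.96 kb upstream of Npr3 was the 1 member region present in both Myc and neither Input library, at ranks of 53.8 and 31.6, and PCM1 replicate 1 had a peak of rank 15.4 there.

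Beyond the 7 genes, 12 further genes listed for the natriuretic peptide pathway were examined at their TSS. Of these, 5 had a region with a peak in all 6 libraries and could be tested, and limma called 0 of the 5 in any of the 3 contrasts. They were Pcsk6, a convertase that activates Corin, the peptidase gene Dpp4, and the phosphodiesterase genes Pde3a, Pde5a and Pde9a. Pde3a, whose product breaks down cAMP and is inhibited by cGMP, ranked highest (92.7 and 79.7 in Input, 91.4 and 92.0 in Myc, 88.2 and 87.8 in PCM1). Pde9a, specific for cGMP, gave 84.2 and 58.6 (Input), 78.5 and 78.7 (Myc) and 63.1 and 72.6 (PCM1), and Pde5a, the target of sildenafil, 79.3 and 60.9, 81.8 and 75.1, and 69.4 and 60.3. Prkg1, the cGMP-dependent kinase, had a TSS peak in every library but in no region shared by all 6. Furin, the neprilysin gene Mme, Ide and Ostn had no peak within 1 kb of the annotated start in any library, and Prkg2 and Pde2a had peaks in some.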

How the data were processed

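The authors purified nuclei, prepared Omni-ATAC-Seq libraries and, per the labels' processing notes, mapped reads to mm10 with Bowtie2 (2.3.3.1), handled duplicates with Picard (2.2.1) and ran MACS2 (2.1.0.20160309) on every library to call peaks. The deposited peak lists give, for each peak, a score, the fold (a ratio of summit pileup to local background), and the -log10 p-value and -log10 q-value, all as the authors' peak caller wrote them. The genes, gene lists and tests were chosen with earlier results of these data known.

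The summit pileup was recovered from fold and -log10 p-value, which gave whole numbers within 0.02 for 100% of peaks. Read totals are not given in these lists, so depth was judged from the genome-wide background, 3.96 and 1.02 (Input), 1.44 and 1.44 (Myc) and 0.977 and 0.903 (PCM1). Shallow libraries miss weak sites, so an absent peak is a site not detected at that depth. Peaks of the 6 libraries were merged with bedtools (2.31.1), and log2 pileups of regions with a peak in every library were quantile normalised and fitted with limma (3.58.1), with Benjamini-Hochberg adjustment over all 48861 regions. Peaks were ranked within a library by q-value. In simulated data with 2 libraries a group, few regions were changed, and only Myc against Input was scored. There the fit called few unchanged regions but missed most of the changed ones, so a region not called may still differ. The contrast of Myc with PCM1, in which far more regions were called, was not simulated. Positions came from GENCODE M21 and sequences from GRCm38.p6, of the same build as the files; RefSeq promoters matched all 7 genes.

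Described singly are the regions at each gene's TSS, up to 5 regions per window that lie outside the TSSs of other genes and rank highest, and all regions called or present in both libraries of 1 group and neither of another. Deviations of libraries with the same replicate number correlated at 0.005, -0.004 and 0.006, so the numbers were not taken as pairs. The values of 1 region are not reported here.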

Additional observations from a re-analysis of the deposited data

How the results depend on the processing

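The 36 regions with a peak in every library became 33 with an equal number of peaks per library, 36 at q under 0.01, 26 within 10 kb, and 36 to 38 when a library was left out. The median strongest-peak rank over the 7 genes stayed between 69.5 and 79.1 in all alternatives. Of 5 member regions called between Myc and PCM1, 0 were called on deposited fold enrichment, on which 0 of all 48861 regions were called. The 2 contrasts with Input kept 0 on this measure. When a library was left out, calls between Myc and PCM1 fell at member regions and over all regions. With the replicate block, 4 were called between Myc and PCM1 (the region 21.9 kb upstream of Nppb had an adjusted p of 0.0505 in limma), and 0 against Input in both contrasts. A variance that follows the mean level, chosen after seeing the data, called 6 in Myc and 5 in PCM1 against Input, and 9 between Myc and PCM1, beside 5601, 4322 and 13887 regions in all. Median centring and the q threshold of 0.01 each called 5. Every called region kept its sign in the alternatives run; the causes of lost calls were not tested. The precision is limited by 2 libraries a group and a 4.38-fold range of depth.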
